A study of Homo sapiens with 24 samples.

Results

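The genes described here are 40 genes of the kinetochore, the mitotic spindle and the exit from mitosis, read in tumours that mice grew from COLO320DM, a line of human colorectal adenocarcinoma cells. They were picked by symbol, for their known roles, from the 14119 genes of the deposited expression table. Earlier results of these data were known when they were chosen. All 40 were found and passed the filter on low values. Each tumour line carried a hairpin labelled shNT or sh1487, with or without a cDNA, and mice were given a diet with doxycycline, or none, once tumours averaged 150 mm3. Poly(A) RNA was taken at 72 hr, on day 3 of the diet. The 8 groups, with 3 libraries each, are thus shNT without doxycycline, shNT with doxycycline, sh1487 without and with it, and the same 4 groups carrying the cDNA. What sh1487 targets and which cDNA was added are not given in the labels. Nor do they tell if the 3 libraries of a group came from 3 tumours, so p-values cover only the spread among libraries, which may be technical.

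In mitosis the inner kinetochore assembles on centromeric nucleosomes that hold the histone variant CENPA, and recruits the NDC80 complex, which grips spindle microtubules. Unattached kinetochores feed a checkpoint that holds back CDC20, the activator of the anaphase-promoting complex, and once every chromosome is attached this ubiquitin ligase destroys cyclin B and lets the cell leave mitosis. Most of these genes are transcribed in a wave late in the cell cycle, through promoters read by the MuvB-containing complexes, FOXM1 and NF-Y, and in colorectal tumours their messages mark dividing cells.

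The libraries held 44004848 to 80202279 reads, and 3 reads correspond to between 0.0368 and 0.0711 CPM, the unit of the table, which gives the reads of a gene relative to the scaled size of the library. The title of the series names β-catenin, whose gene CTNNB1 (ENSG00000168036) stood at 226.5 ± 10.4 CPM without and 43.3 ± 1.99 CPM with doxycycline in the sh1487 line, and at 507.5 ± 41.3 and 593.5 ± 21.2 CPM when the cDNA was present (mean ± SD, n = 3). With shNT it stood at 256.7 ± 4.87 and 310.2 ± 16.6 CPM, and with the cDNA at 657.6 ± 116.8 and 470.5 ± 129.6 CPM (SD, n = 3). Of the markers of the labelled tissue, the intestinal factor CDX2 ranged from 986 to 2101 CPM, while the epithelial adhesion genes EPCAM (0.461 to 2.92 CPM) and CDH1 (0.0589 to 1.23 CPM) were low in every library. The third library of the shNT line with cDNA and doxycycline stood apart, with 21.5% of its reads from mitochondrially encoded genes, the most of any library. No step that separates reads of the mouse host is named in the sources used here, and GRCh38 was the only genome build named.

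The regulatory sequence of the genes is shown first, because most of them carry the same short words near the start of transcription. Both words described here were searched on either strand, from 250 bases before to 50 bases after the start. They are the cell cycle homology region, CHR, written TTTGAA or TTCGAA and bound by MuvB complexes, and CCAAT, bound by NF-Y, with overlapping matches counted separately. RefSeq promoters on GRCh38.p14 matched 33 of the 40 genes, leaving out CENPH, CENPM, TTK, AURKA, BIRC5, UBE2C and TPX2. A CHR word stood in 24 of the 33 promoters (72.7%), against 16.4% of all 35116 promoters in the table, and CCAAT in 26 (78.8%), against 34.6%. Both words stood together in 20 of the 33 (60.6%), against 6.38% of all promoters. Within 50 bases of the start on either side, 20 of the 33 (60.6%) held a CHR word, against 5.01% of all promoters. A match is a description of these letters and not a bound site.

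The 6 promoters below belong to genes with both words inside the 150 bases before the start, taken in order of how far doxycycline moved them in the sh1487 line relative to the shNT line. They are printed 5′ to 3′ in the direction of the gene, ending at the base before the start, with CHR and CCAAT matches of either strand in capitals.
HMMR: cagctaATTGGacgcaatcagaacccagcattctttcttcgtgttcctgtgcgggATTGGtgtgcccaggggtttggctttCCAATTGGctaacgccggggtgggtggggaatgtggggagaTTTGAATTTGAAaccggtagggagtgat
MKI67: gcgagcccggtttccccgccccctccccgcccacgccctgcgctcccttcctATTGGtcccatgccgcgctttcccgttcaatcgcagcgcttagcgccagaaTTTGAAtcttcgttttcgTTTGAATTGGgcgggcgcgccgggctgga
DLGAP5: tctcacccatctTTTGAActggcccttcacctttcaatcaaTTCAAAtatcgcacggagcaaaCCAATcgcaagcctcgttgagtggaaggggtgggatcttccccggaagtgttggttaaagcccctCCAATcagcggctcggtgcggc
PRC1: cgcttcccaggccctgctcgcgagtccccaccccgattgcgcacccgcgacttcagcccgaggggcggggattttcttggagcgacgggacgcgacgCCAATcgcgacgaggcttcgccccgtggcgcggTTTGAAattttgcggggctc
CCNB2: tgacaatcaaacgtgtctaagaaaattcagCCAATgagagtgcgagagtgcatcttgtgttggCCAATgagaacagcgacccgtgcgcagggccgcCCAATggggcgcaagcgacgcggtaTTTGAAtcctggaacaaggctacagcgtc
KIF4A: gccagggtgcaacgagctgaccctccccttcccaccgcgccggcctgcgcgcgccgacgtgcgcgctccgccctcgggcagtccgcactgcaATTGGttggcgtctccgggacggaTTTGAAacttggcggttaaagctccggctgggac
The stretch for HMMR is chr5:163460482-163460631 on the plus strand, that for MKI67 chr10:128126424-128126573 on the minus strand and that for DLGAP5 chr14:55191586-55191735 on the minus strand. PRC1 is read from chr15:90994536-90994685 on the minus strand, CCNB2 from chr15:59104996-59105145 on the plus strand and KIF4A from chrX:70289954-70290103 on the plus strand. In the printed bases HMMR holds CHR words in tandem at −28 and −22, counted back from the start, behind CCAAT words at −144, −95, −69 and −66, of which those at −69 and −66 overlap. MKI67 holds CHR words at −47 and −29, the second running into a CCAAT word at −24, and DLGAP5 holds them at −138 and −109, with a further one outside the printed bases at 4 bases after the start. PRC1, CCNB2 and KIF4A show the simplest layout, a single CHR word at −20, −29 and −34 with a CCAAT word upstream of it at −53, −54 and −58. CCNB2 adds CCAAT words at −87 and −120 within the printed bases, so that these 3 matches are spaced by 33 bases, and holds another farther out, outside them.

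The messages of all 40 genes fell with doxycycline in the sh1487 line without cDNA. Together they summed to between 4755 and 4947 CPM in the 3 libraries without doxycycline and to between 1429 and 1482 CPM in those with it, and in each of the 40 genes all libraries with doxycycline lay below all without it, as they did in 41.8% of all genes, while 42.1% lay above without overlap. Each fall passed the test (limma, adjusted p under 0.05 over 13832 genes), in a comparison where 37.5% of all genes were called lower and 37.4% higher. The median difference was −1.57 on the log2(CPM + 1) scale, against 0.01 over all genes tested, and it ranged from −2.34 for HMMR to −0.79 for CENPW. By at least 2-fold on that scale 37 genes fell (37 to 39 when single libraries were left out), a size reached by 9.02% of all genes. The 3 that fell by less on it were CENPW, ANLN and CENPI (−0.998), although CENPI kept 48.7% in mean CPM. In mean CPM, 18.6% (HMMR) to 55.0% (CENPW) of the level was kept, with a median of 33.0%. In bulk tumours, fewer dividing cells and less RNA of these genes per cell cannot be told apart. The fibroblast genes COL1A1, COL3A1 and LUM, 3 of 5 listed, were lower too, from 62.0 to 65.6 CPM in sum without doxycycline to 34.3 to 38.1 CPM with it, and PTPRC, 1 of 4 leukocyte genes, held 42.8 to 47.2 and 45.5 to 47.5 CPM. The erythroid genes HBA1 and HBA2, 2 of 3 listed, summed to 12.7 to 13.4 CPM without and 6.99 to 9.44 CPM with doxycycline, and 7 of 8 epithelial genes to 2029 to 2326 and 1583 to 1662 CPM. In every group most of this epithelial sum is CDX2 (986 to 2101 CPM over all libraries), and KRT8 ranged from 3.47 to 446 CPM. Mitochondrially encoded genes took 11.4% to 12.1% of reads without doxycycline and 12.9% to 13.5% with it. The part of these in the result was not tested. No endothelial gene of the list was analysed here.

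In the shNT line on the same diet 28 of the 40 rose, none fell and 12 did not pass the limma test, where 18.5% of all genes were called higher and 18.7% lower. Their sum went from between 4562 and 4768 CPM to between 5259 and 5674 CPM, and the median difference was 0.30, from −0.12 for MKI67 to 0.56 for MAD2L1. The 12 that did not pass were CENPK, CENPU, NDC80, NUF2, CENPF, TTK, PLK1, UBE2C, KIF4A, HMMR, TOP2A and MKI67. The doxycycline effect in the sh1487 line was lower than that in the shNT line for all 40 genes, each by at least 2-fold, with a median difference of −1.86. Among all genes, 34.4% were lower in that difference, 36.2% were higher, and 11.5% were lower by at least 2-fold. In the shNT line the fibroblast genes summed to 101.7 to 110.3 CPM without and 124.5 to 147.6 CPM with doxycycline, PTPRC held 34.1 to 38.3 and 27.5 to 33.2 CPM, and HBA1 and HBA2 summed to at most 1.61 CPM without and at least 1.71 CPM with it, each without overlap. Their part in the rise was not tested.

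**Figure D1:**
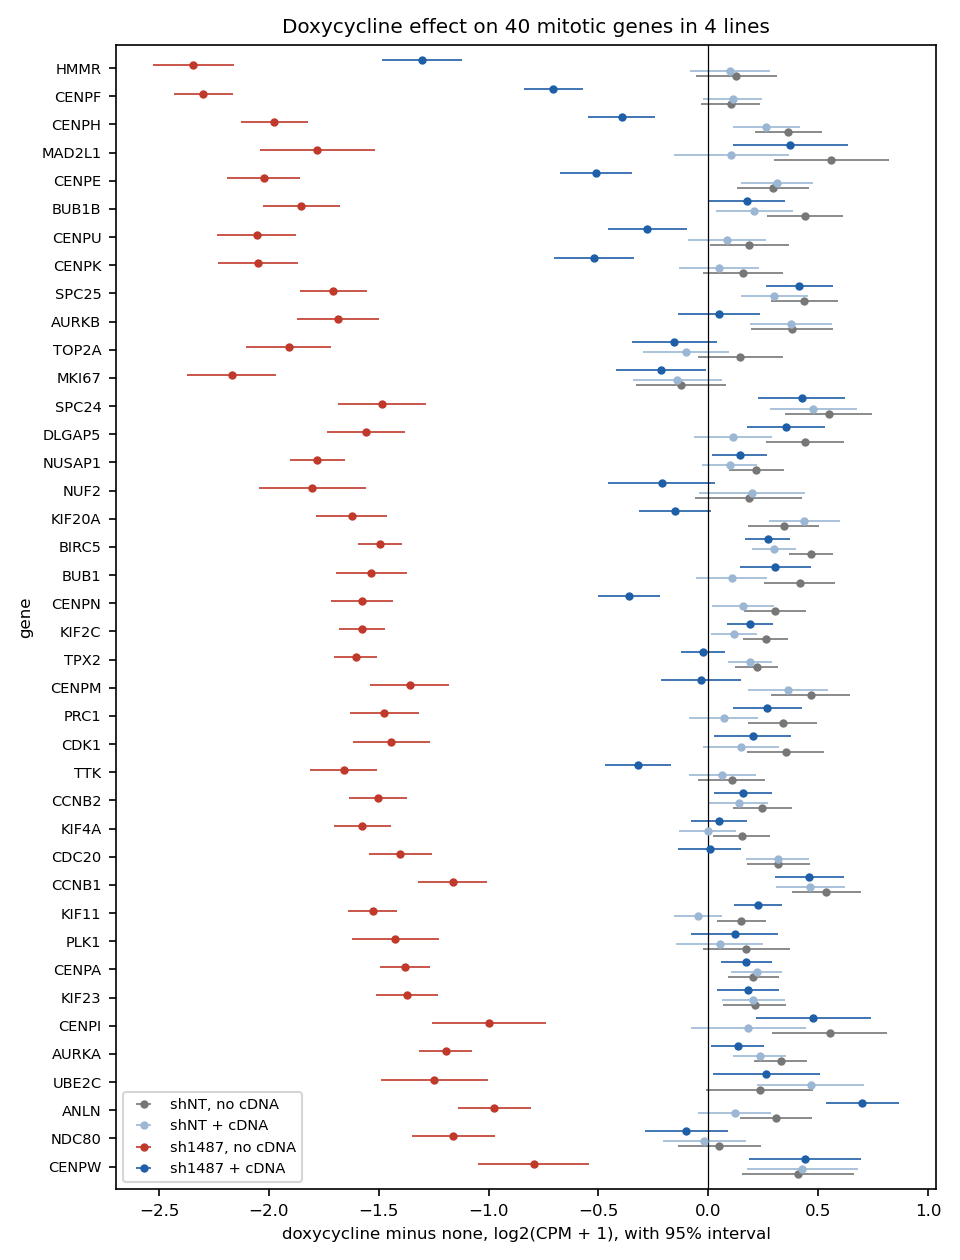
Doxycycline effect on each of the 40 genes (log2(CPM + 1), with minus without doxycycline, points with 95% intervals from the limma fit) in the shNT and sh1487 lines without and with cDNA, 3 libraries per group, ordered by the difference between the sh1487 and shNT lines without cDNA. The red points of sh1487 without cDNA lie between −2.34 and −0.79, for each gene below those of the other lines, while the dark blue points of sh1487 with cDNA lie between −1.30 and 0.70.

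At the inner kinetochore, all 8 genes fell in the sh1487 line, with a median of −1.48. CENPH (ENSG00000153044, chromosome 5, 69189548 to 69210357, GRCh38), a subunit of the constitutive centromere network, stood at 43.4, 48.8 and 45.02 CPM without doxycycline and at 11.2, 10.6 and 10.8 CPM with it. The matching shNT libraries gave 34.2, 36.6 and 35.6 CPM and 42.01, 44.6 and 51.8 CPM. The sh1487 libraries with doxycycline lay far below all others, and the shNT libraries with doxycycline lay above those without. The difference between the effects was −2.34, SE 0.10, limma adjusted p = 7.37e-15. CENPU, of the arm of that network that docks PLK1, went from 56.96, 60.4 and 57.9 CPM to 13.7, 13.3 and 12.9 CPM. Its shNT libraries held 52.4, 61.4 and 58.8 CPM without and 61.1, 64.7 and 71.1 CPM with doxycycline, and those groups overlapped. The effects differed by −2.24, SE 0.12, limma adjusted p = 2.69e-13. CENPW, a histone-fold partner of CENPT, moved least, from 15.1, 16.8 and 17.4 CPM to 9.45, 9.07 and 8.60 CPM in the sh1487 line. In the shNT line it went from 16.2, 17.8 and 19.1 CPM to 24.2, 24.3 and 22.9 CPM, and the difference was −1.20, SE 0.17, limma adjusted p = 2.03e-06. Here too no library of either sh1487 group reached into the other.

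Of the other inner kinetochore genes, CENPK, which binds CENPH, kept 21.3% of its mean CPM in the sh1487 line, the least of the 8, and CENPN, a reader of the CENPA nucleosome, 30.1%. CENPM kept 34.9% and CENPA itself, the histone variant that marks the centromere, 36.4%. CENPI, another subunit of the complex of CENPH, CENPK and CENPM, kept 48.7%, so that members of one complex ranged from 21.3% to 48.7%.

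The 4 subunits of the NDC80 complex, which binds microtubules at the outer kinetochore, fell with a median of −1.60. SPC25 (ENSG00000152253, chromosome 2, 168834132 to 168913371), of the end that faces the inner kinetochore, went from 23.6, 25.6 and 23.6 CPM to 6.88, 6.66 and 6.67 CPM in the sh1487 line. Its shNT libraries rose from 18.1, 19.9 and 19.9 CPM to 24.7, 25.01 and 29.9 CPM. Thus the groups separated in both lines, in opposite directions, with a difference of −2.14, SE 0.10, limma adjusted p = 3.68e-14. SPC24, its partner, held 32.2, 29.9 and 31.5 CPM and 10.4, 10.6 and 10.4 CPM in the sh1487 line without and with doxycycline. With shNT it held 38.2, 36.9 and 42.5 CPM and 59.8, 57.9 and 55.5 CPM, and the difference was −2.04, SE 0.14, limma adjusted p = 9.01e-12. SPC24 also began lower in the sh1487 line than in the shNT line. NDC80, which contacts the microtubule, went from 43.7, 49.3 and 49.1 CPM to 22, 19.6 and 20.3 CPM. Its shNT libraries overlapped, at 44.1, 48.7 and 47.2 CPM without and 44.9, 47.4 and 53.1 CPM with doxycycline. Its difference, −1.21, SE 0.13, limma adjusted p = 1.95e-08, was next to the smallest of the 40, whereas NUF2, the partner of NDC80, differed by −1.99.

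Both genes of the fibrous corona were among the 5 largest differences. CENPF (ENSG00000117724, chromosome 1, 214603195 to 214664588), a large coiled-coil protein that binds regulators of dynein, went from 515, 545 and 534 CPM to 107.5, 105.8 and 108.1 CPM in the sh1487 line. Its shNT groups overlapped, at 461, 494 and 446 CPM without and 482, 467 and 558 CPM with doxycycline. The sh1487 libraries with doxycycline varied little among themselves, and the difference between lines was −2.40, SE 0.091, limma adjusted p = 5.97e-16. CENPE, the kinesin that carries chromosomes to the spindle equator, went from 120.3, 132.6 and 135.6 CPM to 31.4, 30.7 and 31.1 CPM. With shNT it rose from 122.6, 140.1 and 128.3 CPM to 145.2, 151.5 and 186.1 CPM, the third library with doxycycline being the highest. The difference was −2.32, SE 0.11, limma adjusted p = 3.59e-14.

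Among the checkpoint genes, MAD2L1 (ENSG00000164109, chromosome 4, 120055608 to 120067074), which encodes the MAD2 inhibitor of CDC20, had the largest rise of the 40 in the shNT line. There it went from 54.5, 59.2 and 55.8 CPM to 76.4, 85.2 and 90.1 CPM. With sh1487 it fell from 88.5, 98.3 and 97.1 CPM to 27.2, 25.8 and 27.5 CPM. Neither pair of groups overlapped, and the difference was −2.34, SE 0.18, limma adjusted p = 9.56e-11. BUB1B, which encodes the BUBR1 part of the inhibitory complex, held 116.7, 121.8 and 118.6 CPM and then 32.1, 31.6 and 33.1 CPM with sh1487. With shNT it held 86.1, 92.8 and 81.5 CPM and 110.8, 112.1 and 132.1 CPM. Again the lines moved in opposite directions, by a difference of −2.29, SE 0.12, limma adjusted p = 1.09e-13. TTK, the MPS1 kinase that starts checkpoint signalling, fell from 46.6, 51.5 and 51.3 CPM to 15.7, 14.2 and 15.3 CPM. With shNT it stood at 51.6, 57.1 and 55.4 CPM and 54.6, 58.6 and 63.97 CPM, which overlapped, and the difference was −1.77, SE 0.10, limma adjusted p = 1.08e-12. BUB1, the kinase that marks centromeric chromatin for the passenger complex, differed by −1.95.

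The 7 mitotic kinases, cyclins and passenger genes all fell, with differences from the shNT line between −2.07 and −1.53. AURKB (ENSG00000178999, chromosome 17, 8204733 to 8210600), the kinase of the chromosomal passenger complex that corrects faulty attachments, went from 76.5, 71.7 and 81.4 CPM to 23.8, 23.3 and 22.2 CPM with sh1487. With shNT it rose from 64.8, 64.3 and 69.8 CPM to 85.6, 85.6 and 88.2 CPM. The groups were apart in each line, and the difference was −2.07, SE 0.13, limma adjusted p = 2.23e-12. BIRC5, which encodes survivin of the same complex, fell from 147.5, 148.8 and 144.2 CPM to 51.8, 50.8 and 51.8 CPM. It rose in the shNT line, from 177.8, 176.7 and 187.5 CPM to 248, 261 and 242 CPM, and the effects differed by −1.96, SE 0.068, limma adjusted p = 1.34e-16. Both directions were shared widely: all 40 genes fell in the sh1487 line, and 28 of them rose in the shNT line. AURKA, the kinase of centrosome maturation, went from 85.8, 88.96 and 83.8 CPM to 37.4, 36.5 and 37.2 CPM with sh1487. Its shNT libraries went from 83.2, 84.7 and 89.5 CPM to 104.6, 108 and 111.5 CPM, with a difference of −1.53, SE 0.082, limma adjusted p = 2.25e-13. CDK1 and its cyclins CCNB1 and CCNB2, which drive entry into mitosis, kept 36.3%, 44.1% and 34.6% of their mean CPM with sh1487 and doxycycline. PLK1, a kinase active from entry to cytokinesis, kept 36.7%.

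For mitotic exit, CDC20 (ENSG00000117399, chromosome 1, 43358955 to 43363203), the activator of the anaphase-promoting complex, fell from 68.6, 63.5 and 65.6 CPM to 24.4, 24 and 24.5 CPM with sh1487. Its shNT libraries rose from 75.5, 65.2 and 73.5 CPM to 95.3, 95.5 and 78.02 CPM. The sh1487 libraries with doxycycline were within 1 CPM of each other, and the difference was −1.72, SE 0.098, limma adjusted p = 6.17e-13. UBE2C, the ubiquitin-conjugating enzyme that works with that complex, fell from 118.1, 125.5 and 117.3 CPM to 51.8, 51.4 and 47.3 CPM. Its shNT libraries went from 115.6, 117.6 and 132.9 CPM to 140.8, 139.1 and 151 CPM, without overlap but without passing the test (limma adjusted p = 0.122). The difference was −1.48, SE 0.17, limma adjusted p = 4.95e-08.

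The spindle genes held the largest difference of all. HMMR (ENSG00000072571, chromosome 5, 163460203 to 163491945), a microtubule-associated protein of the spindle poles, fell from 63.3, 70.1 and 70.3 CPM to 14, 11.4 and 12.4 CPM with sh1487. Its shNT libraries overlapped, at 51.7, 58.6 and 55.5 CPM without and 55.3, 59.3 and 67.3 CPM with doxycycline. The difference was −2.47, SE 0.12, limma adjusted p = 6.92e-14. DLGAP5, which stabilizes the fibres that reach kinetochores, fell from 59.5, 62.9 and 65.2 CPM to 21.1, 20.03 and 20.6 CPM. It rose in the shNT line from 71.8, 78.7 and 71.04 CPM to 94.8, 102.3 and 104.6 CPM, so the difference came to −2, SE 0.12, limma adjusted p = 1.65e-12. No groups overlapped in either line. KIF11, the motor that pushes spindle poles apart, fell from 100.9, 104.9 and 100.2 CPM to 35.3, 33.8 and 35 CPM. Its shNT libraries rose from 90.8, 89.3 and 84.8 CPM to 94.1, 104 and 96.5 CPM, and the difference was −1.68, SE 0.075, limma adjusted p = 8.91e-15. The other 4, TPX2 (activator of AURKA), NUSAP1 (a microtubule bundler), KIF2C (a microtubule depolymerase) and KIF4A (a chromosome-bound motor), kept between 28.8% and 33% of their mean CPM.

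At the midzone, KIF20A (ENSG00000112984, chromosome 5, 138178719 to 138187715), the motor that brings AURKB to the central spindle, fell from 92.99, 103.7 and 95.3 CPM to 31.4, 31.5 and 29.8 CPM with sh1487. In the shNT line it rose from 83.7, 92.8 and 90.2 CPM to 111.4, 108.7 and 119 CPM. The groups were apart in both lines, by a difference of −1.97, SE 0.11, limma adjusted p = 5.14e-13. PRC1, which crosslinks antiparallel microtubules, fell from 123.7, 131.3 and 125.7 CPM to 45.2, 43.7 and 46.1 CPM. Its shNT values were 109.6, 112.4 and 108.6 CPM and 138.1, 134.1 and 146.8 CPM, and the difference was −1.81, SE 0.11, limma adjusted p = 1.18e-12. KIF23, the motor of centralspindlin, differed by −1.58. ANLN, the anillin scaffold of the contractile ring, fell from 53.02, 55.4 and 55.7 CPM to 28.9, 26.01 and 27.3 CPM. With shNT it rose from 56.5, 57.8 and 54.8 CPM to 64.2, 69.03 and 77.4 CPM, and its difference, −1.28, SE 0.11, limma adjusted p = 1.09e-09, was among the 3 smallest.

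For chromosome structure, TOP2A (ENSG00000131747, chromosome 17, 40388516 to 40417950), the topoisomerase that untangles sister chromatids, fell from 546, 593 and 583 CPM to 153.6, 143.9 and 159 CPM with sh1487. Its shNT libraries overlapped, at 498, 534 and 472 CPM without and 529.8, 552 and 581 CPM with doxycycline, and the difference was −2.06, SE 0.13, limma adjusted p = 5.04e-12. MKI67, the proliferation antigen that coats mitotic chromosomes, fell from 541, 494 and 520.3 CPM to 113.5, 110.0 and 119.8 CPM. With shNT it held 609.5, 585 and 520.1 CPM and 558, 458 and 560.0 CPM, the second doxycycline library being the lowest, and the difference was −2.05, SE 0.14, limma adjusted p = 1.17e-11. Neither gene passed the test in the shNT line.

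**Figure D2:**
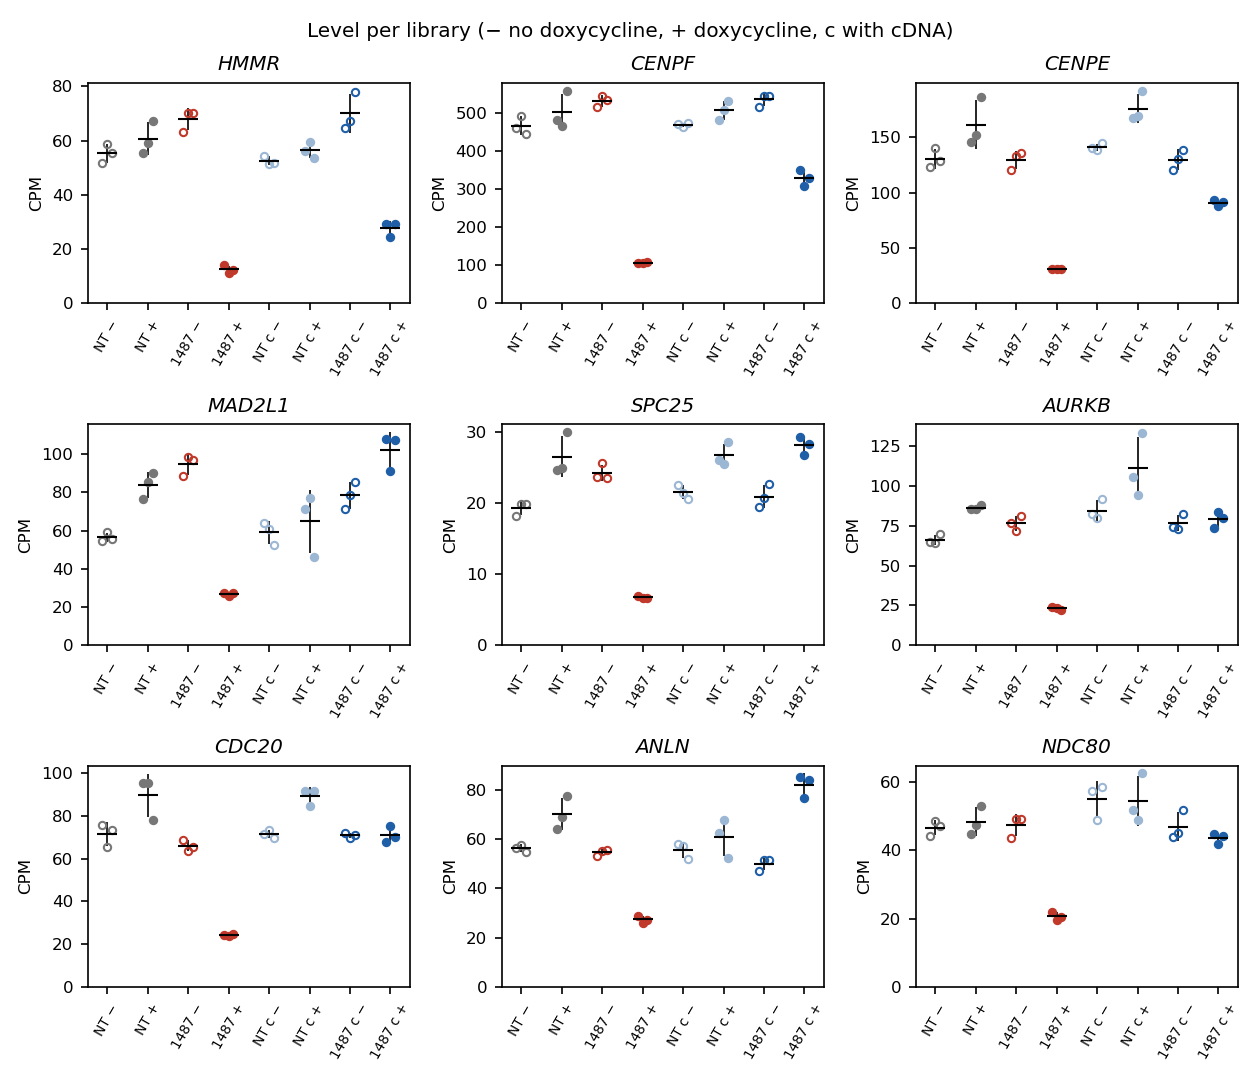
CPM in every library for 9 of the genes, in the shNT and sh1487 lines (tick labels drop the sh) without and with cDNA (c), without (−, open points) or with (+, filled points) doxycycline; bars give the mean and SD of 3 libraries and each axis starts at 0. The sh1487 libraries with doxycycline and no cDNA are the lowest in every panel, and with the cDNA HMMR, CENPF and CENPE lie between those and the libraries without doxycycline while ANLN with the cDNA lies above every other group and overlaps only shNT with doxycycline.

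With the cDNA present, most of the 40 genes no longer fell in the sh1487 line. The 40 genes summed to between 4436 and 4755 CPM without doxycycline and to between 4263 and 4624 CPM with it. By the limma test 18 rose, 8 fell and 14 did not pass, where 28.3% of all genes were called higher and 31.3% lower, and the median difference was 0.14. The 8 that still fell were HMMR, CENPF, CENPK, CENPE, CENPH, CENPN, TTK and CENPU. That count was 11 when only the groups compared were fitted, and 12 without the third libraries of both shNT groups with cDNA. The doxycycline effect was higher with the cDNA than without it for all 40 genes, each by at least 2-fold (35 genes with a pseudocount of 5), with a median of 1.61 and a range from 1.04 for HMMR to 2.15 for MAD2L1. In that comparison 27.2% of all genes were higher, 32.9% lower and 6.39% higher by at least 2-fold. It shares the sh1487 libraries without cDNA with the comparison of sh1487 and shNT. In the sh1487 line with cDNA the fibroblast genes summed to 62.0 to 74.6 CPM without and 57.4 to 61.7 CPM with doxycycline, and the epithelial genes to 1907 to 2219 and 1589 to 1785 CPM. PTPRC held 53.3 to 57.2 and 35.5 to 40.4 CPM, and HBA1 and HBA2 summed to 9.02 to 10.3 and 16.3 to 17.6 CPM. None of these ranges overlapped, and their part was not tested.

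With the cDNA, 266 of the 13832 genes tested fell by at least 2-fold in the sh1487 line, among the 40 only HMMR. It went from 64.8, 67.2 and 78.03 CPM to 29.3, 24.6 and 29.3 CPM (−1.30, SE 0.088, limma adjusted p = 3.86e-11), a kept share of 39.6% against 18.6% without the cDNA. In the shNT line with cDNA it held 54.5, 51.3 and 51.8 CPM and 56.1, 59.4 and 53.7 CPM. No library of sh1487 with cDNA and doxycycline reached the level of any library without doxycycline, nor sank to that of the line without cDNA.

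CENPF followed, from 517, 546 and 546 CPM to 349.7, 308 and 329 CPM (−0.70, SE 0.065, limma adjusted p = 5.64e-09), beside 471, 463 and 473 CPM and 482, 507 and 532 CPM in the shNT line with cDNA. CENPE went from 120.0, 130.3 and 138.6 CPM to 93.03, 87.5 and 91.2 CPM (−0.51, SE 0.079, limma adjusted p = 1e-05), while with shNT and cDNA it went from 140.3, 138 and 144.4 CPM to 166.7, 169.2 and 191.1 CPM. Both corona genes thus lay lower with sh1487 and doxycycline than in any other group that carried the cDNA. TTK held 49.3, 52.8 and 57.5 CPM and 43.9, 38.9 and 44.4 CPM (−0.32, SE 0.073, limma adjusted p = 0.000735), against 63.4, 55.5 and 60.9 CPM and 60.8, 64.9 and 62.05 CPM with shNT.

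Of the 8 inner kinetochore genes, 3 rose and 4 fell in the sh1487 line with cDNA. Among all genes, 28.3% were called higher and 31.3% lower. CENPH went from 37.5, 36.2 and 42.2 CPM to 30.5, 27.8 and 29.03 CPM (−0.39, SE 0.073, limma adjusted p = 8.28e-05), against 41.96, 38.1 and 39.7 CPM and 48.3, 45.5 and 50.7 CPM with shNT and cDNA. CENPU went from 55.8, 55.6 and 66.4 CPM to 48.8, 45.8 and 51.4 CPM (−0.28, SE 0.086, limma adjusted p = 0.00849), against 71.4, 61.4 and 72.6 CPM and 69.3, 67.1 and 81.8 CPM. For both genes the sh1487 libraries with doxycycline lay below all other libraries with the cDNA. CENPK and CENPN fell as well, by 0.52 and 0.36 on the log2 scale. CENPI, in one complex with CENPH and CENPK, rose from 31.9, 32.8 and 28.4 CPM to 46.5, 39.8 and 44.6 CPM (0.48, SE 0.13, limma adjusted p = 0.00242). CENPW went from 15.7, 16.6 and 18.4 CPM to 23.5, 21.5 and 24.8 CPM (0.44, SE 0.12, limma adjusted p = 0.00385), and with shNT and cDNA from 25.1, 19.9 and 27.3 CPM to 30.1, 26.8 and 42.5 CPM. CENPI and CENPW thus moved against CENPH and CENPU, without overlap of their sh1487 groups. With shNT and cDNA, CENPI held 30.85, 34.49 and 25.44 CPM and 37.87, 41.97 and 25.12 CPM. Between the hairpins with cDNA the effects on CENPI and CENPW differed by 0.30 and 0.01. Neither difference passed (limma adjusted p = 0.177 and 0.965). CENPA rose by 0.17, and CENPM stood at −0.03 (limma adjusted p = 0.763).

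Of the outer kinetochore and checkpoint, SPC25 rose with sh1487 and cDNA from 19.4, 20.7 and 22.7 CPM to 29.3, 26.8 and 28.3 CPM (0.41, SE 0.073, limma adjusted p = 5.06e-05). Its shNT libraries with cDNA held 22.6, 21.4 and 20.6 CPM and 26.1, 25.6 and 28.6 CPM. SPC24 rose from 28.6, 26.6 and 27.7 CPM to 35.8, 40.8 and 35.9 CPM (0.42), beside 47.8, 40.5 and 53.2 CPM and 63.4, 56.9 and 78.7 CPM with shNT. In the fit of all groups these partners rose in every line but sh1487 without cDNA, where both fell. NDC80 stood at 43.8, 45.2 and 51.98 CPM and 44.8, 41.99 and 44.3 CPM, and with shNT at 57.5, 48.9 and 58.7 CPM and 51.8, 48.9 and 62.6 CPM. MAD2L1 rose from 71.4, 78.5 and 85.5 CPM to 107.7, 91.3 and 107.2 CPM (0.37, SE 0.13, limma adjusted p = 0.0143). Its shNT libraries with cDNA spread from 64.1, 60.8 and 52.5 CPM without to 71.2, 77.2 and 46.3 CPM with doxycycline, the lowest being the one with 21.5% mitochondrial reads. BUB1B held 100.7, 107.3 and 108.9 CPM and 125.3, 109.7 and 123.8 CPM with sh1487 and cDNA, apart but short of the test (limma adjusted p = 0.0741), and 93.2, 93.9 and 82.8 CPM and 102.9, 119.2 and 91.7 CPM with shNT.

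Of the kinases and exit genes, AURKB held 74.1, 73 and 82.2 CPM and 73.5, 83.7 and 80.2 CPM with sh1487 and cDNA, which overlapped. With shNT and cDNA it went from 82.2, 79.7 and 91.8 CPM to 105.4, 94.5 and 133.3 CPM. BIRC5 rose from 137.8, 131.1 and 138.7 CPM to 164, 158.2 and 169.8 CPM with sh1487 (0.27) and from 199.7, 188.2 and 197.8 CPM to 245, 246 and 231 CPM with shNT. Survivin message thus moved the same way in both lines that carried the cDNA. AURKA stood at 85.2, 81.2 and 92.2 CPM and 94.8, 90.3 and 98.8 CPM with sh1487, and at 96.8, 84.9 and 96.6 CPM and 109, 107.1 and 111 CPM with shNT. CDC20 held 71.8, 69.8 and 70.8 CPM and 67.9, 75.4 and 70.2 CPM with sh1487, beside 71.4, 73.1 and 69.8 CPM and 91.6, 84.7 and 91.7 CPM with shNT. UBE2C held 113.9, 101.9 and 123.8 CPM and 131.9, 139.8 and 135.3 CPM, beside 142.9, 113.8 and 155 CPM and 181.6, 153.9 and 239 CPM. With sh1487 and cDNA, neither exit gene passed the test, at limma adjusted p = 0.944 and 0.0583.

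Of the spindle and midzone genes, DLGAP5 rose with sh1487 and cDNA from 47.5, 52.1 and 56.5 CPM to 70.1, 61.9 and 68.2 CPM, and with shNT it held 81.1, 79.7 and 73.6 CPM and 87.6, 96.5 and 71.4 CPM. KIF11 rose from 83.5, 85.3 and 83.8 CPM to 98.4, 101.1 and 96.8 CPM, and with shNT it held 89.95, 90.3 and 85.8 CPM and 86.3, 91.6 and 79.8 CPM. KIF20A held 98.4, 96.9 and 107.9 CPM and 92.6, 86.4 and 93.5 CPM, and rose with shNT from 96.3, 80.6 and 100 CPM to 120.5, 115.5 and 139.6 CPM. The effects on these motors thus lay on opposite sides of those in the shNT line, higher for KIF11 and lower for KIF20A. PRC1 rose from 110.0, 115.2 and 114.6 CPM to 141.5, 129.4 and 139 CPM, beside 118.6, 115.5 and 104.5 CPM and 122.7, 135 and 100.3 CPM. ANLN had the largest rise of the 40, from 47.2, 51.5 and 51.4 CPM to 85.3, 76.6 and 84.2 CPM (0.70, SE 0.080, limma adjusted p = 1.42e-07), where the mean with doxycycline was 164% of its level without doxycycline. With shNT and cDNA it held 58, 57.1 and 52.1 CPM and 62.4, 67.99 and 52.4 CPM. Every ANLN library with sh1487, cDNA and doxycycline lay above all of these. TOP2A held 506, 549 and 538 CPM and 504, 442 and 487 CPM, against 488, 495 and 419.6 CPM and 439.5, 513 and 363 CPM with shNT. MKI67 held 505, 552 and 491 CPM and 477, 430.0 and 426 CPM, against 514, 605 and 459 CPM and 454, 534 and 438 CPM. With sh1487 and cDNA the libraries of both chromosome structure genes were lower with doxycycline without overlap, but neither gene passed the test in either line with cDNA.

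**Figure D3:**
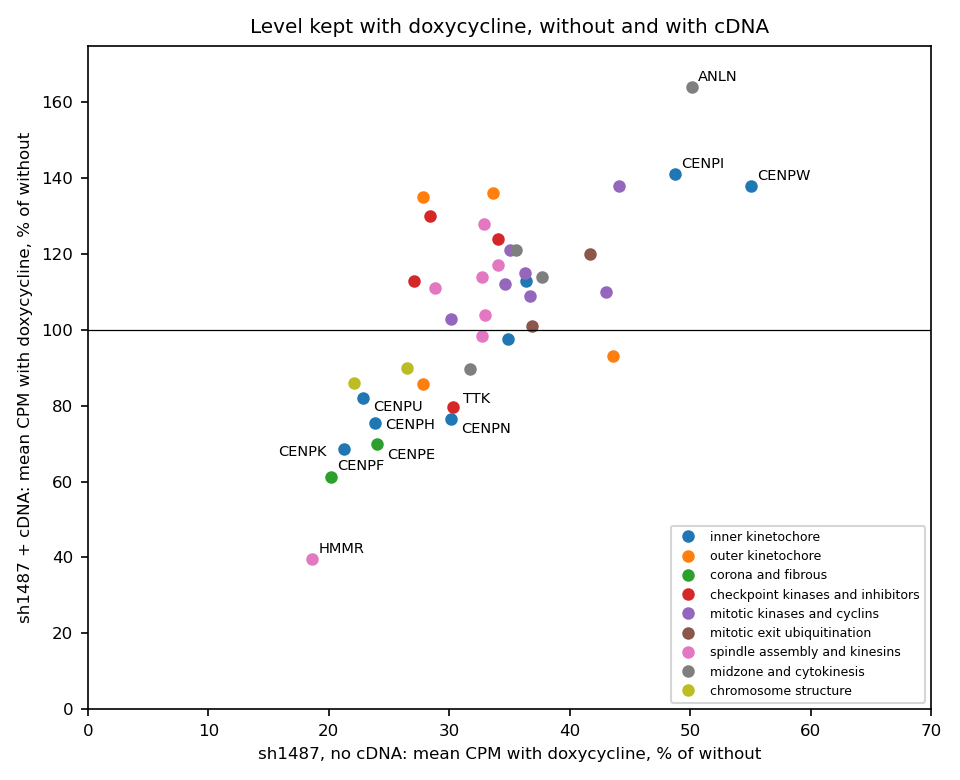
Mean CPM with doxycycline as a percentage of that without it for the 40 genes, in the sh1487 line without cDNA (x axis, 18.6% to 55.0%) against the sh1487 line with cDNA (y axis, 39.6% to 164%), coloured by role; the horizontal line marks 100%. HMMR, CENPF and CENPK lie lowest on both axes, and ANLN, CENPI and CENPW lie farthest to the right and above the line.

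Genes that fell farther without the cDNA tended to lie lower with it. Across the 40 genes the doxycycline effects in the sh1487 lines without and with cDNA, which share no library, correlated with Pearson's r = 0.752 and Spearman's rho = 0.647, and with r = 0.718 without HMMR. Over all genes tested r was 0.633. Across the 40 genes, the effects in the sh1487 and shNT lines without cDNA correlated with r = 0.41 (−0.175 over all genes). Those in the shNT lines without and with cDNA gave r = 0.644 (0.755 over all genes). Genes are not independent replicates, and the paired lines share the diet and, except for sh1487 with shNT, the hairpin. These values are therefore a description.

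In the shNT line with cDNA, 16 of the 40 genes rose with doxycycline, none fell and 24 did not pass, where 16.3% of all genes were called higher and 15.6% lower, with a median of 0.15. This count, like the shares of all genes, rests on the fit over all 24 libraries. With the 6 libraries of that line alone it was 2, CCNB1 and CDC20, and no share of all genes is given for that fit. Without the third libraries of both shNT groups with cDNA it was again 16. In that line PTPRC held 32.1 to 35.7 CPM without and 24.8 to 28.4 CPM with doxycycline, HBA1 and HBA2 summed to 1.65 to 2.51 and 2.73 to 4.57 CPM, and the epithelial genes to 1538 to 1768 and 1811 to 2115 CPM, and their part was not tested. Between the lines with cDNA, the doxycycline effect was lower with sh1487 than with shNT for 14 genes and higher for 2, where 24.6% of all genes were lower and 22.3% higher. The count of 14 was 10 when only the groups compared were fitted, with library size alone and with library totals without mitochondrial genes. HMMR (−1.40, SE 0.12, limma adjusted p = 1.08e-08), CENPE (−0.82) and CENPF (−0.82) had the largest negative differences. The 2 higher genes were ANLN (0.58, SE 0.11, limma adjusted p = 0.000261) and KIF11 (0.27), and 7 genes were higher when the second shNT library with cDNA and doxycycline was left out. The 24 genes that did not pass are not shown to be alike in both lines.

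The lines were also compared before doxycycline. Without cDNA, 15 of the 40 genes were higher and 4 lower with sh1487 than with shNT, where 32.1% of all genes were higher and 34.1% lower, with a median of 0.05. MAD2L1 (0.73) and CENPN (0.51) were the highest. CENPA (−0.64, SE 0.056, limma adjusted p = 1.12e-09), SPC24, BIRC5 and DLGAP5 were the lower ones. In the sh1487 lines without doxycycline, 1 gene, CENPM, was higher with the cDNA and 7 were lower, where 13.3% of all genes were higher and 10.3% lower. The 7 were CENPH, SPC25, CCNB1, CCNB2, KIF11, NUSAP1 and DLGAP5. That count of 7 was 13 when only the groups compared were fitted, and leaving out single libraries took it as low as 2 (without the second sh1487 library, or without the first or the second sh1487 library with cDNA) and to 3 without the third sh1487 library. CENPM no longer passed without the first or the third library of either group.

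Per kilobase of the gene length deposited with the values, the 40 genes spanned a wide range of levels in the shNT line without doxycycline. The order rests on that length, which need not be the length of the transcripts present. TPX2 stood at 99.1 CPM per kb and UBE2C at 94.9, whose libraries overlapped, followed by TOP2A at 77.9, NUSAP1 at 67.7 and BIRC5 at 47.4. From BIRC5 down to CENPA at 24.8 CPM per kb, each neighbour in the order overlapped the next. CENPI (6.88), CENPK (5.97) and CENPN (3.71) were the lowest, each apart from the next. With CENPM at 8.93, the 4 lowest were all inner kinetochore genes.

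Among the 33 genes with a promoter, the difference between the doxycycline effects of the sh1487 and shNT lines is set beside the words they hold. The median was −1.85 for the 20 with both words, −1.63 for the 4 with CHR alone (NDC80, NUF2, BUB1B and ANLN), −2.05 for the 6 with CCAAT alone and −1.84 for the 3 with neither (CENPI, CENPE and KIF2C). CENPE, with neither word in this window, differed by −2.32, and CENPW, with both, by −1.20. These medians are descriptions of small groups, and no test was made of them.

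Other genes of mitosis and cell division, 141 in 13 lists, were read beside the 40. The counts of falls and rises in these lists are for doxycycline in the sh1487 line without cDNA. In that comparison 37.5% of all genes were called lower and 37.4% higher. With doxycycline in the sh1487 line, all 8 condensin genes, all 5 passenger and shugoshin genes, all 17 further kinesins and spindle proteins and all 8 centrosome duplication genes fell, at medians of −1.45, −1.43, −1.38 and −1.18. Relative to the shNT line, the condensin subunit NCAPH differed by −2.17 and NCAPG by −1.67, CDCA8 of the passenger complex by −1.59 and SGO1, which guards centromeric cohesion, by −1.57. The motor KIF15 differed by −2.05, SPAG5, the astrin gene, by −2.11, PLK4, the kinase of centriole duplication, by −1.96 and its partner STIL by −1.59. Each of these passed the limma test of the difference.

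Kinetochore genes outside the 40 moved less uniformly, but the 40 and these lists were chosen with earlier results of these data known. Of 14 in the inner kinetochore and CENPA loading list, 12 fell and 1 rose with sh1487 and doxycycline (median −0.80), and of 13 outer kinetochore genes 11 fell and none rose (median −0.98). CENPP differed from the shNT line by −1.59 and OIP5, which helps deposit CENPA, by −1.64. CENPC, the protein that bridges the CENPA nucleosome and the outer kinetochore, rose from 37.7 ± 0.66 to 43.1 ± 1.72 CPM (SD, n = 3; limma adjusted p = 0.0128). KNTC1 of the corona differed by −2.20 and DSN1 of the MIS12 complex by −1.96. SKA2 was higher relative to shNT by 0.49, with an effect in the sh1487 line alone that did not pass (0.14, limma adjusted p = 0.188).

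Of 4 further checkpoint genes, TRIP13, which remodels MAD2, and BUB3 fell, differing by −2.19 and −1.05 from the shNT line, and MAD2L1BP, a cofactor of TRIP13, rose from 18.4 ± 0.57 to 24.7 ± 0.78 CPM (SD, n = 3; limma adjusted p = 1.21e-05). In the anaphase-promoting complex list 9 of 19 fell, 3 rose and 7 did not pass (median −0.22), where 37.5% of all genes fell and 37.4% rose. In that list, ESPL1, the separase that cuts cohesin, and FBXO5, an inhibitor of the complex, differed by −2.12 and −1.48. The small subunits ANAPC16, ANAPC13 and CDC26 rose, ANAPC16 from 39.98 ± 1.68 to 64.2 ± 0.74 CPM (SD, n = 3). Of 10 cohesin genes 7 fell and 1 rose (median −0.34). CDCA5, the sororin that protects cohesin, differed by −2.09, PDS5A by −0.86, and WAPL, which releases cohesin, rose from 79.0 ± 1.99 to 95.2 ± 3.55 CPM (SD, n = 3; limma adjusted p = 0.0396).

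Of the mitotic entry genes, 12 of 15 fell and 1 rose (median −0.81). CDC25A, a phosphatase that activates cyclin-dependent kinases, differed by −1.68 and MASTL, the Greatwall kinase, by −1.81, while ENSA, a substrate of MASTL, rose from 1475 ± 49.3 to 1689 ± 49.6 CPM (SD, n = 3; limma adjusted p = 0.0444). Of the 12 genes for MuvB, DREAM and FOXM1 factors, which act at CHR promoters, 10 fell and 1 rose (median −0.41). MYBL2 went from 125.7 ± 6.32 to 39.98 ± 0.38 CPM and FOXM1 from 128.8 ± 12.6 to 37.1 ± 0.47 CPM (SD, n = 3). With the cDNA, MYBL2 stood at 103 ± 1.61 without and 137 ± 8.56 CPM with doxycycline, and FOXM1 at 119 ± 1.94 and 117 ± 13.1 CPM (SD, n = 3). RBL2, the p130 subunit of the repressive DREAM complex, rose from 74.8 ± 3.83 to 91.5 ± 2.51 CPM (SD, n = 3; limma adjusted p = 0.0173).

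Cytokinesis genes fell in 5 of 7 cases (median −1.10), with RACGAP1 of centralspindlin differing by −1.64 and the citron kinase gene CIT by −1.60, while the actin regulator RHOA and the septin gene SEPT7 rose. RHOA went from 347 ± 3.37 to 495 ± 16.1 CPM (SD, n = 3). Of 9 tubulins 4 rose and 4 fell (median 0.13), near the shares of all genes, 37.4% called higher and 37.5% lower. TUBA1A rose from 664 ± 19.5 to 2723 ± 87.3 CPM (SD, n = 3), a difference of 1.82 from the shNT line, beside rises of TUBB2A, TUBB2B and TUBB6, and TUBB fell from 956 to 713 CPM in the mean of 3 libraries. Tubulin genes are close in sequence, so that their separate levels are uncertain. Relative to the shNT line the rises of CDC26, WAPL, ENSA and RBL2 did not pass the test, with limma adjusted p between 0.0643 and 0.568.

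**Figure D4:**
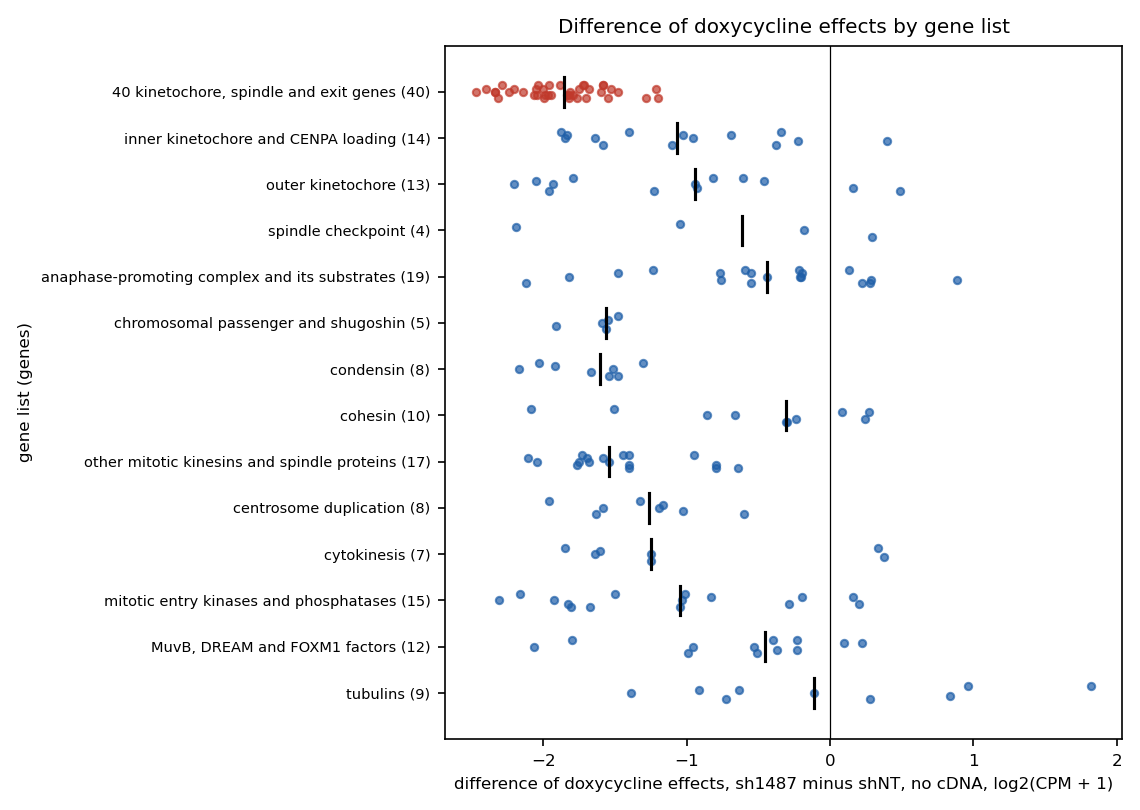
Difference between the doxycycline effects of the sh1487 and shNT lines without cDNA (log2(CPM + 1)) for each of the 40 genes (red) and of the 141 other genes in 13 lists (blue), with vertical bars at the median of each list and the number of genes in brackets. The 40 genes lie between −2.47 and −1.20 with a median of −1.86, condensin has a median of −1.60, and the tubulin list spreads to both sides of 0.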

How the data were processed

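Per the labels' protocols, poly(A) RNA of xenograft tumours was made into TruSeq stranded libraries and sequenced on a NovaSeq. Per the submitters' processing notes, Trimmomatic 0.39, STAR 2.7.7a, featureCounts in Subread 2.4.2, edgeR 4.0.2 and GRCh38 were used. The deposited values are a signal, CPM scaled by the authors with effective library sizes; recomputed TMM factors gave the same scaling within a relative difference of 3.44e-15. Whole reads were recovered for 100% of values within a tolerance of 0.001, and intervals from reads cover counting error only. Gene coordinates come from GENCODE annotation on GRCh38.

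A gene was tested if 3 or more libraries reached 1 CPM (13832 kept, 287 removed), on log2(CPM + 1) with limma 3.58.1 (trended prior, R 4.3.3), in 1 fit of 8 group means over 24 libraries. From it 9 contrasts were drawn, and p-values were adjusted by Benjamini-Hochberg over all 13832 genes, with a gene called at 0.05. A count test on the recovered reads, edgeR 4.0.16 quasi-likelihood, called 10469 genes for doxycycline in the sh1487 line, against 10368 by limma, and DESeq2 1.42.0 called 10561. The scripts were tested on simulated data. Alternatives were other scalings, pseudocounts and filters, the count tests, the compared groups alone, a replicate block and the removal of single libraries. Same-numbered libraries did not deviate together in every pair of any contrast, so the numbers were not taken as pairs.

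The members, their roles and the lists of other genes were chosen with earlier results of these data known. Values in every library are given, by rule, for the 2 genes of each role with the largest difference between the doxycycline effects of the sh1487 and shNT lines and the 1 with the smallest, and beyond the rule for CENPI, chosen after its values were seen. Of each other list the 2 genes with the smallest p in that difference are named, with those called against the rest of their list. Promoters printed are the first 6 by that difference with both words in the 150 bases before the start. CENPX, CENPS and HASPIN were read under the older symbols STRA13, APITD1 and GSG2. One further list of genes is not reported here.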

Additional observations from a re-analysis of the deposited data

Results flagged for a closer look

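The doxycycline effects differed between hairpins and between lines with and without cDNA, each tested in the limma fit. Without the cDNA, 40 genes had a lower effect with sh1487 than with shNT, as did 34.4% of all genes. In the sh1487 line, 40 had a higher effect with the cDNA than without it, as did 27.2% of all genes. Of all genes, 24.6% were lower and 22.3% higher between the hairpins with the cDNA, and 16 of the 40 differed, 14 lower and 2 higher. At the kinetochore these were CENPH (−0.66), CENPK (−0.57), CENPM (−0.40), CENPN (−0.52), CENPU (−0.36), NUF2 (−0.41), CENPE (−0.82) and CENPF (−0.82), given as log2 differences of effects. Among kinases and exit genes they were TTK (−0.38), AURKB (−0.33) and CDC20 (−0.31). On the spindle and midzone they were TPX2 (−0.22), KIF11 (0.27), HMMR (−1.40), KIF20A (−0.59) and ANLN (0.58). The count of 14 lower genes was 10 when only the groups compared were fitted. It was also 10 with library size alone and with library totals without mitochondrial genes.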

How the results depend on the processing

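In the sh1487 line without cDNA, in the comparison of the lines without cDNA and in the comparison with and without cDNA, all 40 genes kept their direction and passed under every alternative run, including edgeR, limma-voom and DESeq2 on recovered reads. Differences of at least 2-fold in the last of these were 35 with pseudocount 5, 38 with library totals without mitochondrial genes and 39 with library size alone, and in the comparison of the lines 39 with pseudocount 5. Single genes gave 6040 values under alternatives, in 7 of the 9 contrasts (the comparisons before doxycycline were not run gene by gene). Of these 5884 kept their call, 90 no longer passed and 66 newly passed. Among values that passed in the main fit or the alternative, 0 reversed direction. Changes of sign where neither passed were not counted. The shares of all genes belong to the main fit and are not given for the alternatives. With only the groups compared, 2 genes rose in the shNT line with cDNA (16 in the fit of all groups) and 13 were lower with the cDNA before doxycycline (7 in the fit of all groups). That count of 7 was 4 with library size alone and 11 with the third libraries of both shNT groups with cDNA left out. Leaving out single libraries moved it between 2 and 7, and the count of higher genes between 0 and 1. Likewise the higher genes in the comparison of the lines with cDNA ranged from 2 to 7, and the falls in the shNT line with cDNA from 0 to 1. Rises there ranged from 13 to 22, those with sh1487 and cDNA from 12 to 20 and falls from 7 to 9. With a replicate block, 40 genes fell in the sh1487 line, 28 rose in the shNT line, and 19 rose and 9 fell with sh1487 and cDNA. Correlations of deviations between same-numbered libraries ran from −0.338 to 0.84 over the 6 pairs of groups, and 2 of the 3 in the shNT line with cDNA were 0.821 and 0.84 (the other 0.0169). Library totals without mitochondrial genes moved the median of all genes by 0.125 for sh1487 with doxycycline and no cDNA (members at −1.43) and by 0.108 in the comparison of the lines without cDNA (members at −1.76), and library size alone moved the former by 0.102 (members at −1.45). Searched in the 250 bases before the start alone, CHR stood in 48.5% of the promoters (14.3% of all) and both words in 42.4% (5.05% of all). The causes of these shifts were not tested. Depth limits little here, since each of the 40 genes stood above the value of 3 reads in every library, but 3 libraries per group limit the tests of small effects.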
